A study of Mus musculus with 24 samples.

Results

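The 10 genes described here make up the MHC class II pathway: the classical chains H2-Aa, H2-Ab1 and H2-Eb1, the H2-M chains H2-DMa, H2-DMb1 and H2-DMb2, the H2-O chains H2-Oa and H2-Ob, the invariant chain Cd74, and the transactivator Ciita. They were chosen by name among the non-control probes of the array, of which 16 of 39429 carried a member's name. All 10 passed the filter on dim probes and are 10 of 15778 genes tested. The series holds 24 Agilent arrays, each read in one colour, of RNA from the blood of male C57BL/6J mice. The mice were of the Gadd45aWT or Gadd45aKO genotype, and blood was drawn through the heart 24 h after 0 Gy or 7 Gy of x-rays. There were 5 arrays of Gadd45aWT mice at 0 Gy, 5 of Gadd45aWT mice at 7 Gy, 5 of Gadd45aKO mice at 0 Gy and 9 of Gadd45aKO mice at 7 Gy. The labels give no age, no allele beyond the genotype name and no animal behind an array, so a p-value here reflects only how far these samples spread, part of which may be technical. The Gadd45aKO arrays are called KO-labelled, because their level of the Gadd45a probe at 0 Gy was 0.50 ± 0.16 (SD, n = 4) against 0.65 ± 0.23 (SD, n = 5) in the Gadd45aWT (WT) arrays.

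MHC class II molecules are heterodimers that hold peptides from endocytosed proteins at the surface of B cells, dendritic cells and other antigen-presenting cells, where CD4+ T cells read them. New alpha and beta chains assemble around the invariant chain, Cd74. After proteases cut it down, a fragment called CLIP stays in the groove. H2-M exchanges CLIP for other peptides, and H2-O, which is found mostly in B cells, restrains H2-M. Ciita is the transactivator that switches the other genes on by docking on factors bound at their promoters. C57BL/6 mice carry a defective gene for the E alpha chain, so H2-Eb1 is transcribed without its usual partner.

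The class II promoters are known for an X box bound by the RFX complex and, after a fixed gap, a Y box bound by NF-Y. They are shown as background to the members, and no link between them and the changes below was tested. RefSeq promoters (GRCm38.p6, 250 bases before to 50 bases after a start) were at hand for 7 of the 10 members. The Y box letters ATTGG stood on the gene's strand in at least 1 entry of all 7, against 22.1% of all 32851 promoters (37.4% when both strands are counted). A core of the X box, written GNAAC, followed by ATTGG with 28 to 36 bases between their first letters, was found in 5 of the 7 and in 0.734% of all promoters on the gene's strand (1.55% on either strand). The motifs cannot overlap at that spacing. The pattern was written with these promoters in view, so the shares are a description. A match is not a shown binding site, and the absence of a match in H2-DMa and H2-DMb2 says only that these letters are not in these windows. Capitals mark the X core and the Y box, read 5′ to 3′ on the strand of the gene.
H2-Aa: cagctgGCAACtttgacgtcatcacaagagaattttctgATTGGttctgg
H2-Eb1: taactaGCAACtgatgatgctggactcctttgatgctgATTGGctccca
H2-DMb1: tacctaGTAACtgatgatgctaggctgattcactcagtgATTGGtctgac
H2-Oa: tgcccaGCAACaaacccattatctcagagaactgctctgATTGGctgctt
H2-Ob: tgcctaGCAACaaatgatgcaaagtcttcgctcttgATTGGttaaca

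These windows lie at chr17:34287861-34287910 on the minus strand for H2-Aa and, on the plus strand, at chr17:34305770-34305818 for H2-Eb1, chr17:34153091-34153140 for H2-DMb1, chr17:34092297-34092346 for H2-Oa and chr17:34238812-34238858 for H2-Ob (GRCm38.p6). The first letters of the boxes were 30 to 33 bases apart, and the Y box began between position −61 and position −43 from the annotated start. A non-member, the class II chain gene H2-Eb2, carried the same pair at 32 bases.

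The probes themselves are 60 bases long, and their places are given by the array files in mm9. The 4 shown here measured chains of H2-M and H2-O, whose unequal falls are described below. The H2-DMa probe spans 564 bases of the genome and the H2-Ob probe 369, more than the probes' own length, as a probe over a splice junction would; the annotation of mm9 was not used here. The 4 probes lie on chromosome 17 at 34274300 to 34274863 (H2-DMa), 34284764 to 34284823 (H2-DMb2), 34232033 to 34232092 (H2-Oa) and 34380481 to 34380849 (H2-Ob).
H2-DMa: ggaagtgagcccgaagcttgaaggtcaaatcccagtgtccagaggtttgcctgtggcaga
H2-DMb2: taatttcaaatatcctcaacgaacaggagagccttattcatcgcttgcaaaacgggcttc
H2-Oa: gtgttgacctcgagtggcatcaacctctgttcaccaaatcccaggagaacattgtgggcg
H2-Ob: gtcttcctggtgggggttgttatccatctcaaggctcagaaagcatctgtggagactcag

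A level below is the log2 intensity of a probe less the 75th percentile of its array (of those probes that were well above background throughout), so 0 stands for a bright probe, and levels of different probes are not compared. Well above background is the scanner software's own flag. Between 25.7% and 50.9% of probes on an array had it. KO-labelled 0 Gy replicates 1 and 4 differed by less than repeat spots within an array (0.945 times their spread) and were averaged and counted as 1 sample, which leaves n = 4 in that group. Replicates 1 to 5 of each group lay on slides 1 to 5, with 1 array of every group on each, and KO-labelled 7 Gy replicates 6 to 9 lay together on slide 6. Repeat spots varied by over 10% on KO-labelled 0 Gy replicate 2, KO-labelled 7 Gy replicates 3 and 5, and WT 0 Gy replicate 1.

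Blood drawn 24 h after 7 Gy held far less class II pathway RNA than blood of unexposed mice, in both genotypes. Of the 10 members, 9 fell in the WT arrays (limma, Benjamini-Hochberg adjusted p under 0.05 over all genes), while 13.3% of all genes fell. In the KO-labelled arrays 10 of 10 fell, while 34.8% of all genes did. The median member changed by −3.36 in WT (−3.29 with H2-DMb2 at its bound) and by −3.40 in KO-labelled arrays, against −0.05 and −0.27 for all genes tested. In WT, 10 of 10 members had every 7 Gy array below every 0 Gy array, against 16.5% of all genes. In KO-labelled arrays 9 of 10 did, Ciita being the exception, against 19.7% of all genes. The counts of members called and of members without overlap all include H2-DMb2, whose probe passed the filter through the unexposed arrays. It was well above background on 0 of 5 WT and 1 of 9 KO-labelled exposed arrays, so its part in these counts rests largely on readings not above background. In bulk blood, fewer cells of a type and less RNA per cell cannot be told apart. The split of all calls in KO-labelled arrays leaned on scaling: 74.1% of them were lower here, 53.3% with the 75th percentile over all probes, 61.9% with the median, 60.7% with quantile normalization and 42.0% with normexp background correction.

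**Figure D1:**
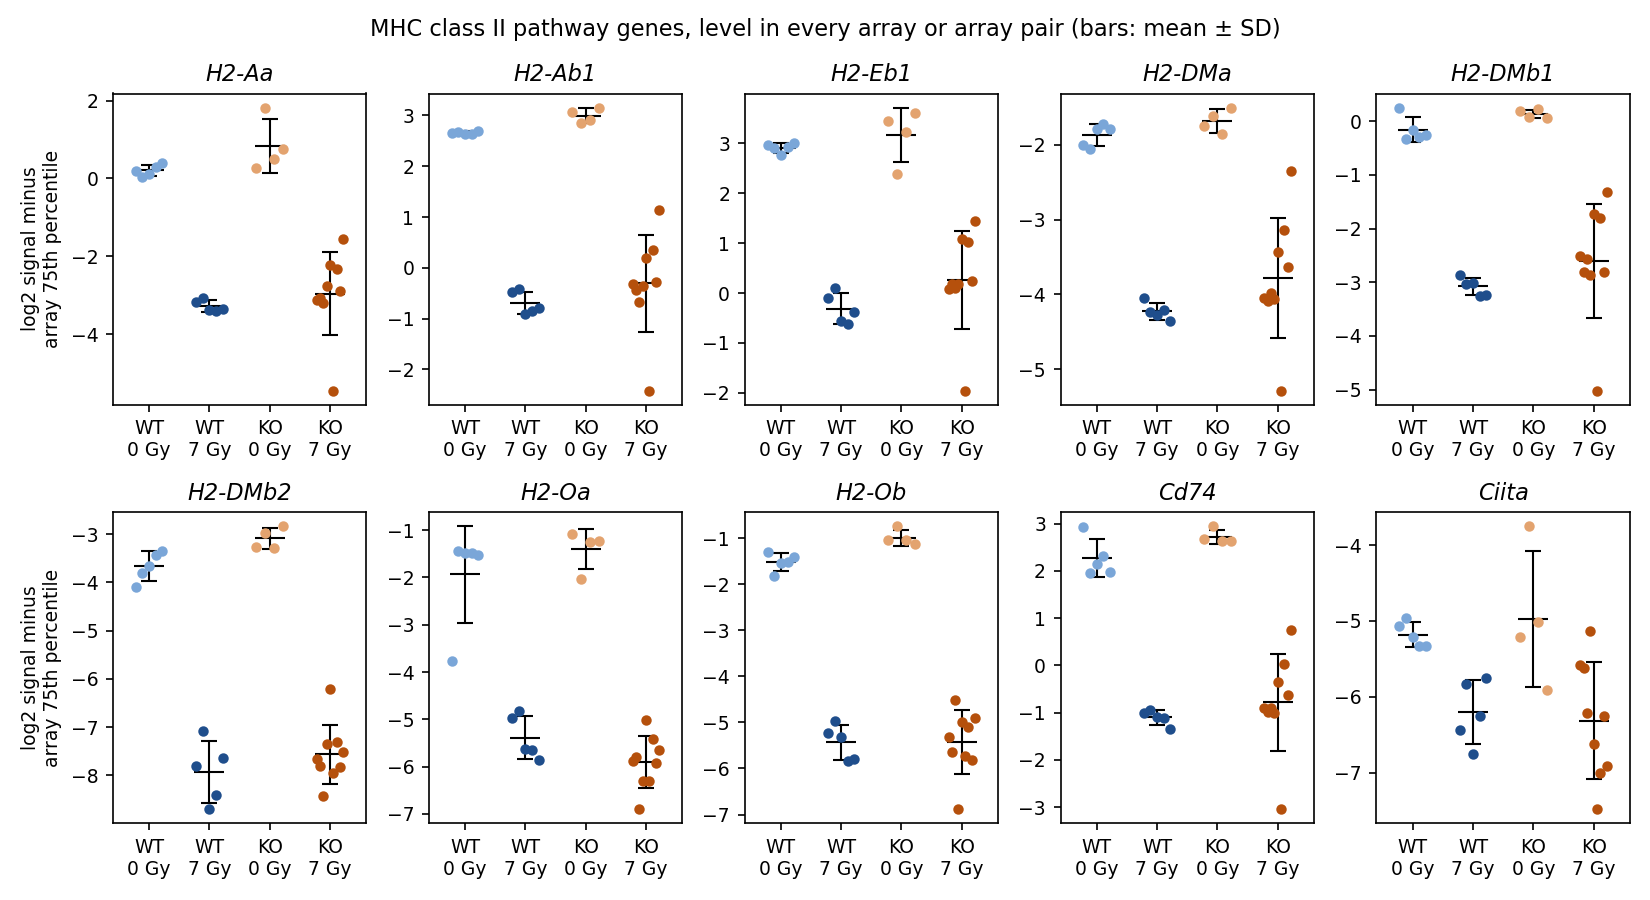
Level of the 10 genes (log2 signal minus the array's 75th percentile, vertical axes) in each array of the 4 groups; the pair of averaged KO-labelled 0 Gy arrays is 1 point, and bars are the mean and SD (n = 5, 5, 4 and 9). In 9 panels every 7 Gy point lies below every 0 Gy point of the same genotype; in the Ciita panel the KO-labelled groups overlap.

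The classical chains form the groove that presents peptide. H2-Ab1, the A beta chain, read 2.66, 2.68, 2.63, 2.63 and 2.69 on the WT 0 Gy arrays and −0.48, −0.43, −0.90, −0.84 and −0.80 on the WT 7 Gy arrays. It read 3.08, 2.84, 2.90 and 3.15 on the KO-labelled 0 Gy samples, and from −2.42 through a median of −0.32 to 1.14 on the 9 KO-labelled 7 Gy arrays. The doses did not overlap in either genotype, and the unexposed WT arrays lay within an SD of 0.03 of their mean. H2-Ab1 fell in both: the log2 change was −3.35 ± 0.39 (SE) in WT, 10.2-fold (adjusted p = 8.4e-07), and −3.30 ± 0.37 in KO-labelled arrays, 9.87-fold (adjusted p = 2.98e-07).

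H2-Ab1 was read by a second probe that overlaps the first in 51 bases, with 50 of them identical; the difference is T51C, counted from 1 at the 5′ end of the first probe. The stretches around it are shown because the probes differ there, with the differing base in capitals.
first H2-Ab1 probe: aataaacgagacTcagactctg
second H2-Ab1 probe: aataaacgagacCcagactctg

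The readings of both H2-Ab1 probes moved alike. The second probe's mean changed by −3.32 in WT and −3.29 in KO-labelled arrays.

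H2-Aa, the A alpha chain that pairs with H2-Ab1, read 0.20, 0.05, 0.11, 0.30 and 0.39 on the WT 0 Gy arrays and −3.18, −3.07, −3.38, −3.42 and −3.35 on the WT 7 Gy arrays. It read 0.27, 1.82, 0.49 and 0.76 on the KO-labelled 0 Gy samples and −5.45 to −1.56 (median −2.89) on the KO-labelled 7 Gy arrays. The unexposed KO-labelled sample at 1.82 is the noisy replicate 2. H2-Aa fell, with a change of −3.49 ± 0.45 (SE) in WT (adjusted p = 4.38e-06) and −3.79 ± 0.43 in KO-labelled arrays (adjusted p = 4.12e-07).

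H2-Eb1, the E beta chain, read 2.97, 2.89, 2.76, 2.92 and 3.01 without exposure and −0.10, 0.09, −0.56, −0.63 and −0.38 after 7 Gy in WT. In KO-labelled samples it read 3.44, 2.38, 3.22 and 3.61 at 0 Gy and −1.95 to 1.44 (median 0.18) at 7 Gy. Again no exposed array reached an unexposed one. H2-Eb1 fell, with a change of −3.22 ± 0.42 (SE) in WT (adjusted p = 3.8e-06) and −2.90 ± 0.39 in KO-labelled arrays (adjusted p = 3.99e-06). The related chain gene H2-Eb2, which is not among the 10, had a probe that was well above background on all 10 unexposed arrays and on 0 exposed ones. It was at least 3.83-fold lower in WT and at least 4.03-fold lower in KO-labelled arrays. The limma adjusted p values, 2.58e-08 and 5.82e-09, belong to fitted changes that rest on exposed readings not above background. The probe for H2-Ea, the defective E alpha gene, was well above background on 0 of 24 arrays and was not tested.

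All 3 chains of H2-M, the peptide editor, fell in both genotypes. H2-DMa, its alpha chain, read −2.00, −2.05, −1.79, −1.72 and −1.79 in unexposed WT arrays and −4.05, −4.24, −4.27, −4.21 and −4.36 after 7 Gy. In KO-labelled samples it read −1.75, −1.61, −1.85 and −1.50 at 0 Gy and −5.29 to −2.35 (median −3.99) at 7 Gy. The doses stood apart in both genotypes, and the fitted changes were the smallest among the members other than Ciita: −2.36 ± 0.33 (SE) in WT (adjusted p = 1.05e-05) and −2.10 ± 0.31 in KO-labelled arrays (adjusted p = 1.11e-05). With normexp background correction the adjusted p for H2-DMa was 0.154 in WT and 0.103 in KO-labelled arrays.

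The beta chain of H2-M comes from a pair of neighbouring genes in the mouse. H2-DMb1 read 0.25, −0.33, −0.17, −0.29 and −0.26 in WT at 0 Gy and −2.87, −3.03, −3.01, −3.25 and −3.23 at 7 Gy. It read 0.19, 0.07, 0.22 and 0.06 in KO-labelled samples at 0 Gy and −5.02 to −1.32 (median −2.57) at 7 Gy. Its change was −2.92 ± 0.42 (SE) in WT (adjusted p = 1.87e-05) and −2.74 ± 0.40 in KO-labelled arrays (adjusted p = 1.02e-05), with no overlap between doses.

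H2-DMb2 read −4.10, −3.81, −3.65, −3.43 and −3.34 in WT at 0 Gy and −7.80, −7.09, −8.70, −8.41 and −7.65 at 7 Gy. It read −3.26, −2.98, −3.29 and −2.83 in KO-labelled samples at 0 Gy and −8.42 to −6.21 (median −7.66) at 7 Gy. Its probe went from well above background on all 10 unexposed arrays to 0 of 5 WT and 1 of 9 KO-labelled exposed arrays. The WT level at 7 Gy is therefore a bound, and H2-DMb2 was at least 8.77-fold lower. The limma adjusted p of 2.22e-09 belongs to the fitted WT change of −4.26, which rests on exposed readings not above background, and not to the bound. The probe passed the filter on dim probes through the unexposed arrays. The bound sets the WT 0 Gy mean against the lowest signal among probes well above background on each 7 Gy array, or the probe's own value where that is higher. In KO-labelled arrays the fitted change was −4.47 ± 0.30 (SE; adjusted p = 3.93e-10), but it rests on 8 exposed readings not above background. With those 8 set to the same floor and the 1 measured array at its own value, H2-DMb2 was at least 9.67-fold lower in KO-labelled arrays, a log2 change of −3.27. With normexp background correction the change in WT was −0.15 (adjusted p = 0.85), and the adjusted p in KO-labelled arrays was 0.405.

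Both chains of H2-O, the restraint on H2-M, fell in both genotypes, with fitted changes larger than those of H2-DMa and H2-DMb1. The order does not hold for H2-DMb2, whose fitted changes were −4.26 in WT and −4.47 in KO-labelled arrays, largely from readings not above background. It also depends on processing. With normexp background correction the WT changes were −1.35 for H2-Oa and −1.60 for H2-Ob, against −2.04 for H2-DMb1 and −1.09 for H2-DMa. H2-Oa read −3.76, −1.44, −1.47, −1.49 and −1.52 in WT at 0 Gy, where the low value is the noisy replicate 1, and −4.97, −4.82, −5.63, −5.66 and −5.86 at 7 Gy. It read −1.09, −2.03, −1.25 and −1.22 in KO-labelled samples at 0 Gy and −6.90 to −5.01 (median −5.87) at 7 Gy. The doses did not overlap in either genotype. The change of H2-Oa was −3.45 ± 0.39 (SE) in WT (adjusted p = 7.69e-07) and −4.51 ± 0.37 in KO-labelled arrays (adjusted p = 5.42e-09), where 5 of 9 exposed arrays had it well above background. With normexp background correction the WT adjusted p was 0.256.

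H2-Ob, its partner chain, read −1.31, −1.83, −1.54, −1.53 and −1.41 in WT at 0 Gy and −5.24, −4.98, −5.32, −5.84 and −5.80 at 7 Gy. It read −1.05, −0.74, −1.04 and −1.13 in KO-labelled samples at 0 Gy and −6.88 to −4.52 (median −5.32) at 7 Gy. Its change was −3.91 ± 0.31 (SE) in WT (adjusted p = 3.61e-09; 0.0625 with normexp) and −4.44 ± 0.29 in KO-labelled arrays (adjusted p = 2.5e-10). A second H2-Ob probe, outside the fit, changed by −5.39 and −4.92 and was well above background on all unexposed arrays but on 1 of 5 and 3 of 9 exposed ones.

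Log2 ratios of members within an array were set side by side; the pairs were picked with the values known and carry no test. The ratio of H2-Oa to H2-DMa changed by −1.09 in WT, from a mean of −0.07 (SD 0.96, n = 5) to −1.16 (SD 0.40, n = 5), and by −2.41 in KO-labelled arrays, from 0.28 (SD 0.50, n = 4) to −2.13 (SD 0.69, n = 9). The ratio of H2-Ob to H2-DMb1 changed by −0.99, from −1.37 (SD 0.17) to −2.36 (SD 0.26), in WT and by −1.70, from −1.13 (SD 0.21) to −2.83 (SD 0.98), in KO-labelled arrays. The H2-O probes were not above background on all exposed KO-labelled arrays, so those ratios are less certain. The ratio of H2-Ab1 to H2-DMb1 moved less, by −0.43 and −0.56, and that of Cd74 to H2-Ab1 by −0.02 and −0.20. For H2-Aa against H2-DMa the ratio changed by −1.13 in WT and −1.69 in KO-labelled arrays, so a classical chain also fell more than H2-DMa. For Cd74 against Ciita, whose probe is dim, it changed by −2.35 and −2.16.

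Cd74, the invariant chain, read 2.93, 1.96, 2.15, 2.32 and 1.98 in WT at 0 Gy and −1.01, −0.94, −1.10, −1.11 and −1.35 at 7 Gy. It read 2.68, 2.95, 2.63 and 2.62 in KO-labelled samples at 0 Gy and −3.04 to 0.75 (median −0.89) at 7 Gy. No exposed array reached an unexposed one. Cd74 fell, with a change of −3.37 ± 0.42 (SE) in WT, 10.3-fold (adjusted p = 2.59e-06), and −3.50 ± 0.40 in KO-labelled arrays, 11.3-fold (adjusted p = 4.5e-07).

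Ciita, the transactivator, had the smallest measured change. Its probe was dim, and the part of that in the small change was not tested. Its probe read −5.07, −4.96, −5.21, −5.33 and −5.33 in WT at 0 Gy and −6.44, −5.82, −6.76, −6.25 and −5.75 at 7 Gy. It read −5.21, −3.75, −5.02 and −5.91 in KO-labelled samples at 0 Gy and −7.48 to −5.14 (median −6.25) at 7 Gy. The WT doses stood apart and the KO-labelled ones overlapped. The change was −1.02 ± 0.39 (SE; 95% confidence interval −1.84 to −0.21, adjusted p = 0.0641) in WT and −1.34 ± 0.37 in KO-labelled arrays, where it fell (adjusted p = 0.00497). The probe is dim: it was well above background on all 10 unexposed arrays but on 3 of 5 WT and 3 of 9 KO-labelled exposed arrays. Direction and call depend on the processing. With normexp background correction the changes were 0.67 in WT and 0.21 in KO-labelled arrays, while the median change of all genes moved up by 0.65 and 0.73 from that of the scaling used here. The WT change passed the test with slide as a block (adjusted p = 0.0153), and the KO-labelled change did not without the noisy arrays (−0.91, adjusted p = 0.0762) or without replicates 6 to 9 (−0.86, adjusted p = 0.0513). Of the other Ciita probes, one was well above background on 11 arrays and changed by −0.62 and −0.57, and the last was well above background on 0.

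**Figure D2:**
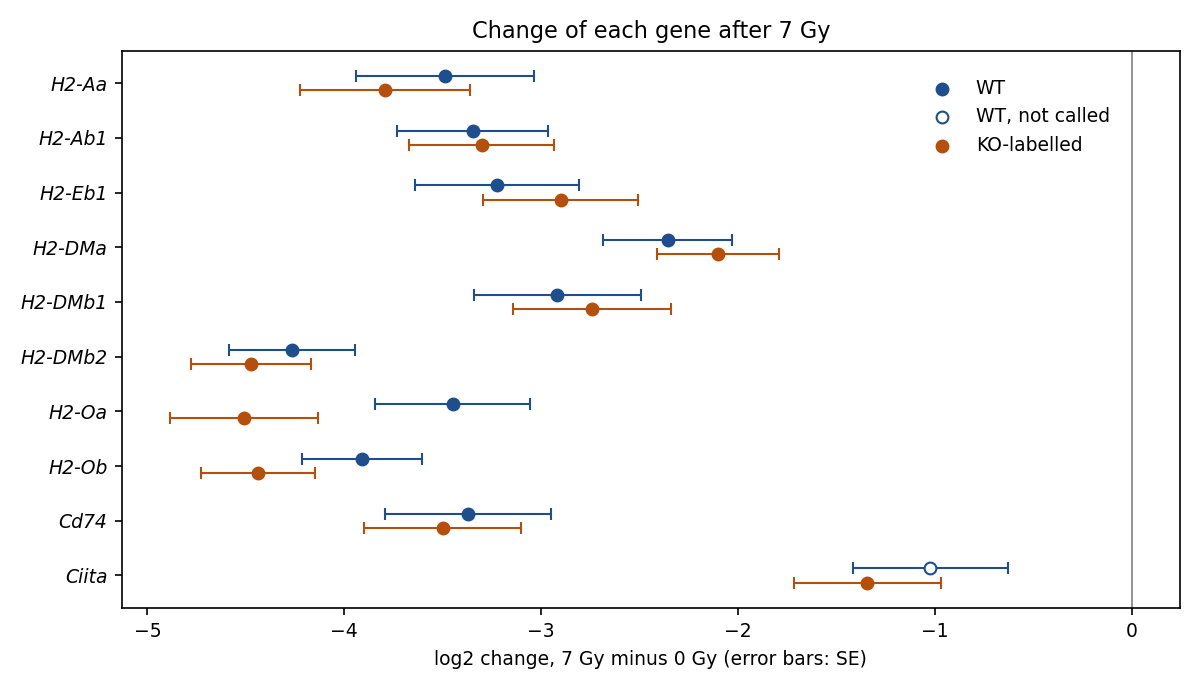
Change of each gene from 0 Gy to 7 Gy (horizontal axis, log2; error bars are the SE of the limma fit) in WT and KO-labelled arrays; the open point did not pass the test, and H2-DMb2 is plotted at its fitted values, where only a bound was measured in WT and 1 of 9 exposed KO-labelled arrays measured it. The points run from −4.51 (H2-Oa, KO-labelled) to −1.02 (Ciita, WT), and the WT and KO-labelled changes of a gene differ most for H2-Oa.

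Within slides 1 to 5, where each genotype had 1 exposed and 1 unexposed array, the mean change of the 10 members ran from −3.40 to −2.75 in WT and from −3.50 to −2.69 in KO-labelled arrays. Ciita apart, every member was lower on 5 of 5 slides in both genotypes. Ciita was lower on 5 of 5 slides in WT and on 4 of 5 in KO-labelled arrays. Here KO-labelled 0 Gy replicates 1 and 4, elsewhere counted as 1 sample, entered as single arrays, so their slides are not separate evidence. The share of all genes lower on every slide is not given here. When arrays closer than 1.5 times the repeat-spot spread were averaged, the WT 0 Gy group became 1 sample. Its spread could then only be assumed from the other groups, so p-values are not given here. The WT changes of H2-Aa, H2-Ab1, H2-Eb1, H2-DMa, H2-DMb1 and Cd74 were then −3.50 to −2.38. Those of H2-Oa, H2-Ob and H2-DMb2 were −3.53, −3.97 and −4.22, the last from exposed readings not above background.

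The response to 7 Gy was next compared between the genotypes. The differences between responses, KO-labelled minus WT, ran from −1.06 (H2-Oa) to 0.32 (H2-Eb1). Without the noisy WT 0 Gy replicate 1, where H2-Oa read low, the H2-Oa difference was −0.60 (95% confidence interval −1.46 to 0.25, adjusted p = 0.336). None of the 10 passed the test of the difference (limma; 0 at an unadjusted p under 0.05), against 15.7% of all genes. The smallest adjusted p was 0.184, for H2-Oa, with a 95% confidence interval of −2.19 to 0.07. The interval for H2-Ab1, around 0.05, ran from −1.06 to 1.15, and that for Cd74, around −0.13, from −1.34 to 1.08. Differences of up to about that size in either direction are not set aside by these arrays.

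Without exposure, none of the 10 members differed past the test between KO-labelled and WT arrays (limma; 0 at an unadjusted p under 0.05), while 0.292% of all genes passed. The mean differences ran from 0.19 (H2-DMa) to 0.63 (H2-Aa) and stood above 0 for 10 of 10 members, as they did for 59.8% of all genes, whose median was 0.10. Without the noisy KO-labelled 0 Gy replicate 2 the difference was 0.30 for H2-Aa, 0.75 for H2-Oa and −0.20 for Ciita, and 9 of 10 stood above 0, against 54.1% of all genes. H2-Ab1, H2-DMb2 and H2-Ob, 3 of 10, had every KO-labelled sample above every WT array, against 7.31% of all genes. For H2-DMb2 the difference was 0.57 ± 0.34 (SE; adjusted p = 0.626) and for H2-Ob 0.53 ± 0.32 (adjusted p = 0.637). After 7 Gy, differences ran from −0.52 (H2-Oa) to 0.58 (H2-Eb1). Again none of the 10 passed (limma; 0 at an unadjusted p under 0.05), against 22.7% of all genes, and the arrays of both genotypes overlapped for all 10.

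That last count rested on 1 array. Without KO-labelled 7 Gy replicate 6, 4 members were called higher in KO-labelled than in WT arrays at 7 Gy, against 5.41% of all genes called higher: H2-Eb1 by 0.85 ± 0.25 (SE; adjusted p = 0.0154), H2-DMb1 by 0.77 ± 0.23 (adjusted p = 0.0168), H2-Ab1 by 0.64 ± 0.22 (adjusted p = 0.0381) and H2-DMa by 0.63 ± 0.23 (adjusted p = 0.0473). Without all of replicates 6 to 9, H2-Eb1 (0.64 ± 0.23, adjusted p = 0.0453) and H2-DMb1 (0.58 ± 0.19, adjusted p = 0.0233) were called higher, 2 of 10 against 8.29% of all genes. With slide as a block, 0 of 10 passed.

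The exposed KO-labelled arrays were the most spread of the 4 groups, and the members did not spread alike. The median SD of a member was 0.18 in WT at 0 Gy, 0.26 in WT at 7 Gy, 0.20 in KO-labelled samples at 0 Gy and 0.88 in KO-labelled arrays at 7 Gy. Slide 6 held only this last group. For the classical chains, H2-DMa, H2-DMb1 and Cd74, the SD in this group was 0.27 to 0.45 on slides 1 to 5 and 1.24 to 1.69 on slide 6. For H2-DMb2, H2-Oa, H2-Ob and Ciita it was 0.58 to 0.89 on slides 1 to 5 and 0.29 to 0.51 on slide 6. Replicate 6 was the lowest of the 9 for 7 of 10 members. Its distance from the group mean was −2.49 for H2-Aa, −2.41 for H2-DMb1, −2.26 for Cd74, −2.22 for H2-Eb1, −2.11 for H2-Ab1, −1.51 for H2-DMa and −1.17 for Ciita. For H2-DMb2, H2-Oa and H2-Ob the distance was −0.39, −0.40 and −0.29, and it was not the lowest. Replicate 9, on the same slide, was the highest for H2-Aa, H2-Ab1, H2-Eb1, H2-DMa, H2-DMb1 and Cd74, by 1.18 (H2-Eb1) to 1.53 (Cd74) above the mean. H2-DMb2 and H2-Oa lay 0.04 and 0.27 above their means in replicate 9, and H2-Ob 0.53. These 3 probes are near background in the exposed KO-labelled arrays, well above it on 1, 5 and 7 of 9.

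**Figure D3:**
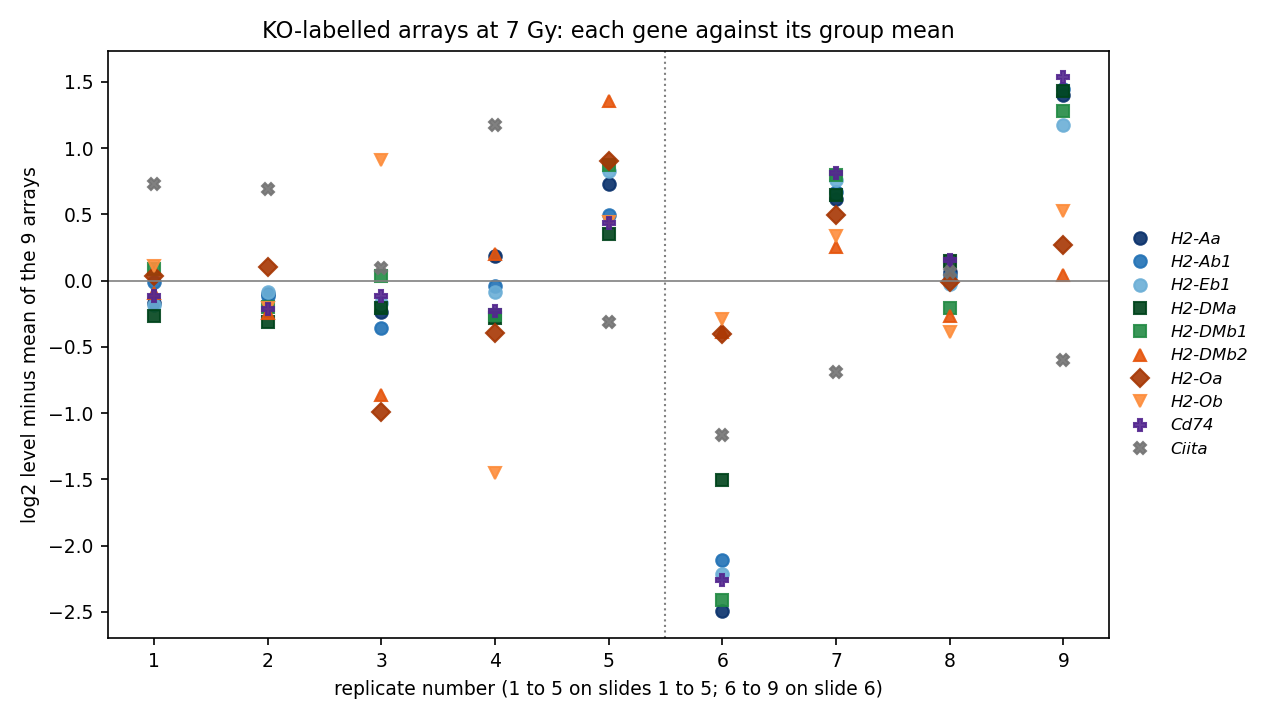
Level of each gene minus its mean over the 9 KO-labelled 7 Gy arrays (vertical axis, log2), by replicate number; the dotted line parts slides 1 to 5 from slide 6. In replicate 6 the 3 classical chains, H2-DMa, H2-DMb1 and Cd74 sit at −2.49 to −1.51, while H2-DMb2, H2-Oa and H2-Ob sit at −0.40 to −0.29.

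Marker lists were read in the same arrays. The mean of the 11 monocyte markers was −3.05 in replicate 6 and −0.47 in replicate 9, the lowest and the highest of the 9 arrays. The mean of the 11 dendritic cell markers was −4.66 and −3.69, also the lowest and the highest. That of the 18 B cell markers was −6.78 in replicate 6, the lowest, and −5.71 in replicate 9, among −6.03 to −4.90 in the others. The neutrophil markers went the other way, at −0.98 in replicate 6 against −2.69 to −2.18 in the other 8. The hepatocyte markers, on the other hand, were highest in replicate 6 at −2.88 and lowest in replicate 9 at −5.14, among −3.79 to −3.15 in the others. The T cell markers were also lowest in replicate 9, at −3.25, and read −2.38 in replicate 6, among −2.83 to −2.21 in the others. The part of these cell types in the members' spread was not tested.

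Over all groups, deviations from the group mean (23 samples) followed the mean of the other members with r = 0.96 for H2-Ab1, 0.92 for H2-DMb1, 0.90 for H2-Aa, 0.89 for H2-DMa, 0.89 for H2-Eb1 and 0.88 for Cd74. The value was 0.44 for H2-DMb2, 0.29 for H2-Oa, 0.29 for H2-Ob and 0.01 for Ciita. The samples share slides and array scaling, and replicate 6 weighs heavily, so these values are descriptions. The genes outside the pathway whose deviations were most like the members' mean were Hmgn1 (r = 0.96), Serpinb1a (0.96), P2ry6, Neurl2 and Ly86 (0.94 each); the median gene had 0.08. Ranked instead by raw level over the same 23 samples, the nearest were Cd79b (0.99), Ly6d (0.99), Blnk (0.99), Fcmr (0.99), Irf8 (0.99) and Cxcr5 (0.98), several of them B cell genes, with 0.16 for the median gene.

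The genes around the 10 were read against the shares of all genes, of which 13.3% fell and 10.1% rose in WT and 34.8% fell and 12.2% rose in KO-labelled arrays. Among factors that act at class II promoters, 3 of 9 tested fell and 0 rose in WT, and 6 of 9 fell and 0 rose in KO-labelled arrays, with list medians of −0.28 and −1.26. Spib, a B cell transcription factor, changed by −4.79 ± 0.49 (SE) in WT (adjusted p = 1.53e-07), Irf8 by −2.71 ± 0.31 (adjusted p = 8.9e-07) and Irf4 by −1.98 ± 0.31 (adjusted p = 4.43e-05). In KO-labelled arrays these 3 fell as well, with changes of −4.96, −2.54 and −1.99. Nfya, a subunit of the Y box factor, changed by −1.04 in WT (adjusted p = 0.147) and fell in KO-labelled arrays (−1.68, adjusted p = 0.00568). Rfxank, of the X box complex, changed by 0.09 and 0.41 (adjusted p = 0.879 and 0.173), and the probes for Rfx5 and Rfxap were well above background on 0 arrays.

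The lysosomal enzymes that process antigen and the invariant chain went both ways. Of 9, 2 rose and 2 fell in WT, and 2 rose and 1 fell in KO-labelled arrays, with list medians of −0.07 and 0.01. Ctsl, a cysteine protease, rose by 1.88 ± 0.42 (SE; adjusted p = 0.00219) in WT and by 1.62 ± 0.40 (adjusted p = 0.00212) in KO-labelled arrays. Ctsd, an aspartic protease, rose by 1.46 ± 0.18 (adjusted p = 1.46e-06) and 1.51 ± 0.17 (adjusted p = 2.9e-07). Ctsb fell in both, with changes of −1.73 and −0.89. Lgmn fell in WT (−1.24, adjusted p = 0.0229) and changed by 0.01 in KO-labelled arrays (adjusted p = 0.981), with an adjusted p of 0.111 for the difference between responses. Ctss, which makes the last cuts in the invariant chain in B cells, changed by −0.32 and −0.23 (adjusted p = 0.58 and 0.582).

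Of 4 genes of class II turnover, 1 fell in WT; 3 fell and 1 rose in KO-labelled arrays. Cd83, which keeps class II on the surface, fell, with changes of −2.73 ± 0.35 (SE; adjusted p = 3.25e-06) and −3.63 ± 0.33 (adjusted p = 2.01e-08). Marchf1, the ubiquitin ligase that removes class II, changed by 0.81 in WT (adjusted p = 0.221) and rose by 2.08 in KO-labelled arrays (adjusted p = 0.00041), with an adjusted p of 0.167 for the difference. Among 4 costimulatory genes, 2 fell in WT and 3 in KO-labelled arrays, among them Cd40 (−2.71 and −2.67) and Icosl (−1.05 and −2.93; adjusted p = 0.00191 for the difference). Cd86 changed by −0.08 and −0.52 (adjusted p = 0.933 and 0.311).

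On the interferon-gamma route to Ciita, 2 of 8 genes rose and 0 fell in WT, while 0 rose and 4 fell in KO-labelled arrays, where 34.8% of all genes fell. The count in KO-labelled arrays depended on scaling: 3 fell and 1 rose with the 75th percentile over all probes, 1 fell with the median, 4 fell and 1 rose with quantile normalization and 2 fell with normexp. Ifng rose by 1.52 ± 0.29 (SE; adjusted p = 0.000414) and Socs1 by 2.08 ± 0.14 (adjusted p = 5.49e-10) in WT. In KO-labelled arrays Ifng changed by −0.12 (adjusted p = 0.743) and Socs1 by 0.09 (adjusted p = 0.618). The difference between responses was −1.64 for Ifng (adjusted p = 0.00952) and −1.99 for Socs1 (adjusted p = 7.89e-06). Ifngr1, Ifngr2, Irf1 and Jak1 fell in KO-labelled arrays, with changes of −1.29, −1.25, −1.07 and −0.54. Among ligand and partners of Cd74, Cd44 rose by 0.68 in WT (adjusted p = 0.0207) and by 1.30 in KO-labelled arrays, and Cxcr4 fell by 3.55 in KO-labelled arrays (−0.52 in WT, adjusted p = 0.289; adjusted p = 0.000505 for the difference). Of the 4 genes, 1 rose and 0 fell in WT, and 1 rose and 1 fell in KO-labelled arrays. Cd4, the T cell coreceptor for class II, changed by −0.03 and 0.26 (adjusted p = 0.977 and 0.64), and the probe for Lag3 was well above background on 0 arrays.

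**Figure D4:**
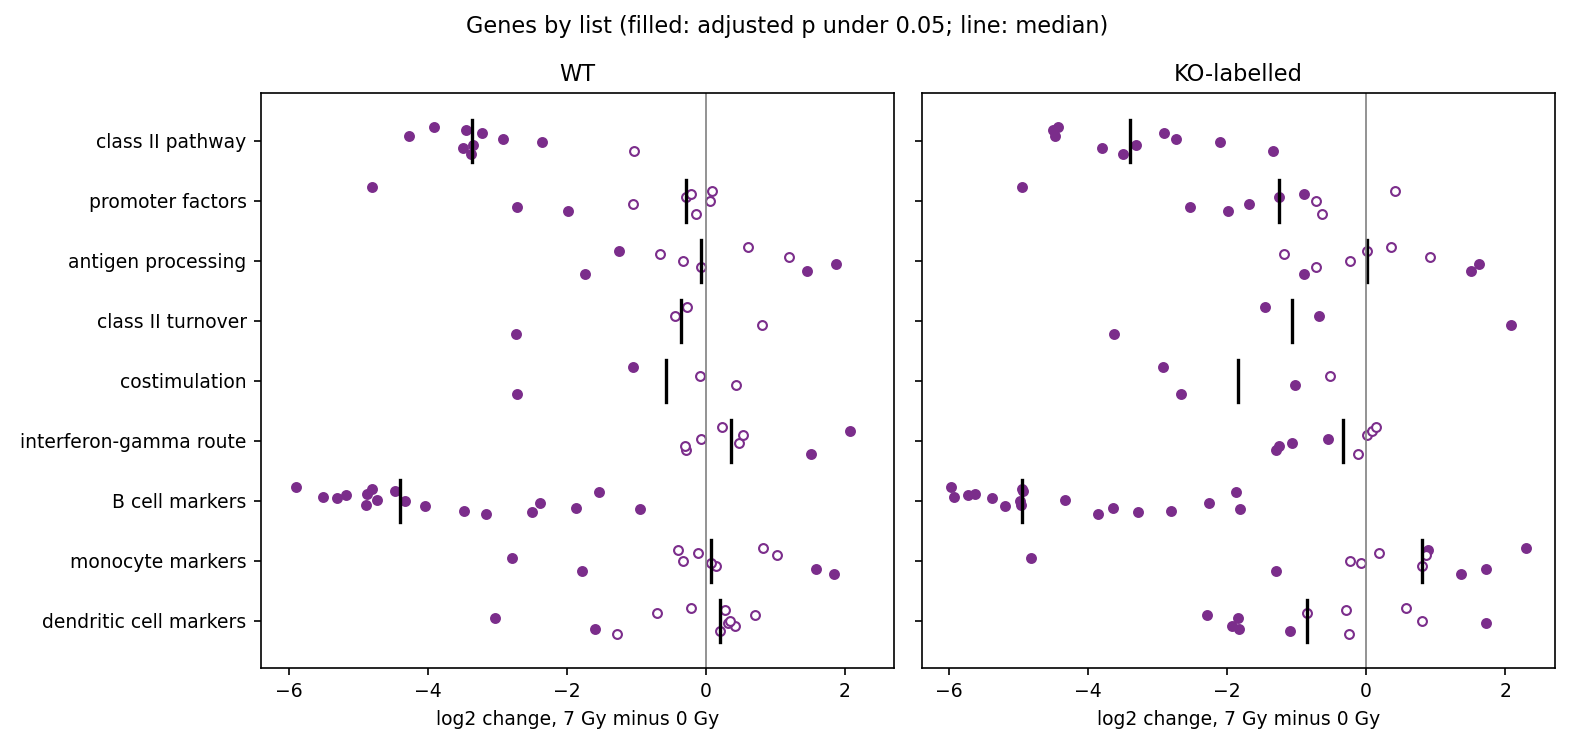
Change from 0 Gy to 7 Gy (horizontal axes, log2) of every tested gene of 9 lists in WT (left) and KO-labelled arrays (right); filled points passed the test and the black line is the list's median. The class II pathway (medians −3.36 and −3.40) and the B cell markers (−4.40 and −4.94) stand to the left of the other lists.

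Cell type markers were read beside the members. All 18 B cell markers fell in both genotypes, with medians of −4.40 in WT and −4.94 in KO-labelled arrays (−4.11 and −4.63 with genes not above background at their bound), and Spib is on this list too. Their mean level per array went from −2.02 to −1.98 at 0 Gy to −6.43 to −5.19 at 7 Gy in WT, and from −1.65 to −1.17 to −6.78 to −4.90 in KO-labelled arrays. After 7 Gy, 6 of the 18 (Blk, Ebf1, Fcer2a, Fcrla, Pax5 and Tnfrsf13c) were well above background on no WT array, and 3 (Blk, Fcer2a and Pax5) on no KO-labelled array. Their calls rest on exposed readings not above background. In WT their bounds ran from at least 1.21-fold lower (Pax5) to at least 37.2-fold lower (Tnfrsf13c). In KO-labelled arrays they ran from at least 1.61-fold lower (Pax5) to at least 18.2-fold lower (Fcer2a). The mean of the members less that of the B cell markers was 1.37 ± 0.07 (SD, n = 5) at 0 Gy and 2.12 ± 0.41 (SD, n = 5) at 7 Gy in WT, and 1.20 ± 0.15 (SD, n = 4) and 2.19 ± 0.37 (SD, n = 9) in KO-labelled arrays. The part of B cells in the members' fall was not tested.

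Markers of other cells that carry class II had medians nearer 0. Of 11 monocyte markers, 2 rose (Adgre1 by 1.85 and Cd14 by 1.59) and 2 fell (Cx3cr1, −2.79, and Ccr2, −1.78) in WT, with a median of 0.08; 4 rose and 2 fell in KO-labelled arrays, with a median of 0.80. All 11 stayed well above background on every exposed WT array. Ctss is counted among them and among the processing enzymes. Of 11 dendritic cell markers, 0 rose and 2 fell in WT (Flt3, at least 4.15-fold, and Cd209a, −1.58; median 0.21), and 1 rose and 5 fell in KO-labelled arrays (median −0.85). T cell markers had medians of 0.06 and −0.68, and neutrophil markers of 0.09 and −0.83.

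Markers of hepatocytes, cells that blood should not hold, were detected at both doses. Of 20 hepatocyte markers, 19 rose in WT and 14 in KO-labelled arrays, with a mean level of 0.83 to 0.85 in WT 7 Gy replicates 3, 4 and 5, −2.97 and −2.94 in replicates 1 and 2, and −7.20 to −6.92 in WT at 0 Gy. In KO-labelled arrays their mean level was −5.14 to −2.88 at 7 Gy and −7.56, −4.91, −7.06 and −4.05 at 0 Gy, so 2 unexposed samples, replicates 2 and 5, lay above the lowest exposed array. Replicate 5 had 18 of the 20 above background. The part of these markers in the members' change was not tested. Without WT 7 Gy replicates 3 to 5, 9 of 10 members were again called lower in WT, where 1635 of 15778 genes were called in either direction. In replicates 1 and 2 alone the mean of the members was −3.61 and −3.43, against −0.72 to −0.56 at 0 Gy. These replicates held hepatocyte markers above the 0 Gy level as well, at −2.97 and −2.94.

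All 8 H2 members lie in 221 kb of chromosome 17, between 34232033 and 34453134 (mm9), and 6 other tested genes lie among them: Brd2, Psmb9, Tap1, Psmb8, Tap2 and a transcript named LF201050 in the files. Psmb8, Psmb9, Tap1 and Tap2 serve peptide supply to MHC class I. In WT, 0 of these 6 fell and 1 rose, Tap1 by 0.84 ± 0.26 (SE; adjusted p = 0.0212). In KO-labelled arrays 5 of 6 fell and 0 rose, where 34.8% of all genes fell and the median gene changed by −0.27. This count depended on scaling as well: it was 3 with the 75th percentile over all probes, 1 with the median, 5 with quantile normalization and 0 with normexp. The changes were −0.99 for Tap2, −0.87 for Psmb9, −0.68 for Brd2, −0.56 for Psmb8 and −2.15 for LF201050, which changed by −0.97 in WT (adjusted p = 0.0627). The 8 class II members had changes of −4.51 to −2.10 in the same arrays.

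**Figure D5:**
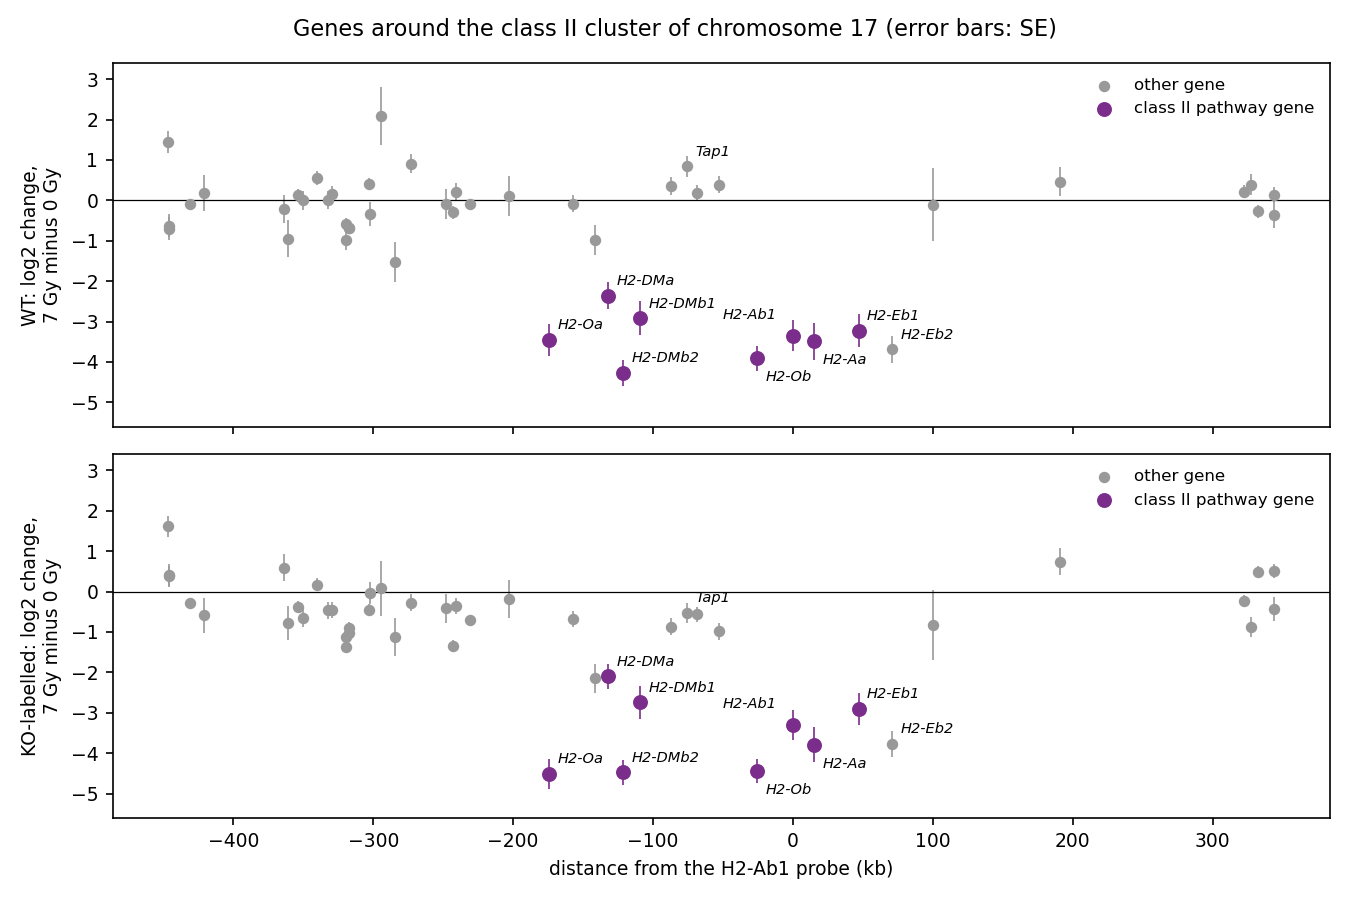
Change from 0 Gy to 7 Gy (vertical axes, log2, with SE) of every tested gene near the H2-Ab1 probe, by distance in kb, in WT (top) and KO-labelled arrays (bottom). The class II pathway genes and H2-Eb2 lie between −4.51 and −2.10; Tap1, among them, lies at 0.84 in WT and −0.53 in KO-labelled arrays.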

How the data were processed

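Per the labels and the submitters' processing notes, the authors scanned 1-colour arrays with Agilent Feature Extraction 12.0.2; the deposited files hold background-subtracted intensity (gProcessedSignal), unscaled between arrays. The authors' deposited value table holds log2 values of 24 arrays; each column was the scanner's log2 plus a constant of 0 to 1.54 (medians 5.75 to 7.18; 0 columns of other samples).

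Flagged spots were left out, spots of a probe averaged, and each array's 75th percentile over 7851 probes above background everywhere subtracted. A probe stayed in where 5 or more arrays had it well above background, and the brightest per gene stood for it. The limma 3.58.1 fit (R 4.3.3) held all 4 groups and was tested on simulated data; tests were two-sided, with Benjamini-Hochberg adjustment over 15778 genes, called under 0.05. All members are named; of other lists, the largest changes and any opposite to the members'. Members and lists were chosen with earlier results of these data known. Slide and scan date were tried as blocks. Array number limits the precision. Some labels name another dye than Cy3; the green channel was read. Promoter sequences are RefSeq's (GRCm38.p6).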

Additional observations from a re-analysis of the deposited data

Results flagged for a closer look

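Among the 40 sets of values (10 genes in 4 groups), 9 had a highest or lowest sample that stood off from the rest of its group by more than chance places 1 in 20 times, so about 2 would be reached by chance. KO-labelled 7 Gy replicate 6 was such a low sample for H2-Aa (−5.45; next −3.19), H2-Eb1 (−1.95; next 0.08), H2-DMb1 (−5.02; next −2.86) and Cd74 (−3.04; next −1.01). KO-labelled 7 Gy replicate 5, a noisy array, was high for H2-DMb2 (−6.21; next −7.31), where the probe was well above background on 1 of 9 arrays. WT 0 Gy replicate 1, the noisiest array, was low for H2-Oa (−3.76; next −1.52) and high for H2-DMb1 (0.25; next −0.17). KO-labelled 0 Gy replicate 2, also noisy, was low for H2-Oa (−2.03; next −1.25) and high for Cd74 (2.95; next 2.68). No member's response differed between the genotypes by the test of the difference.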

How the results depend on the processing

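Members that passed the test numbered 9 in WT and 10 in KO-labelled arrays for 7 Gy against 0 Gy, and 0 in each of the other 3 comparisons. In WT the count was 5 with normexp background correction and 3 with near-identical arrays averaged at the wider limit, where WT 0 Gy is 1 sample; under the other 14 alternatives it was 6 to 10. In KO-labelled arrays it was 6 of the 6 members left when probes had to be above background on all arrays, and 7 to 10 under the other 15. Leaving out 1 array at a time gave 9 in WT each time and 10 in KO-labelled arrays each time; for KO-labelled against WT at 7 Gy it gave 0 to 4, the 4 without replicate 6. That comparison also gave 3 with the replicate block (H2-Ab1, H2-Eb1 and H2-DMb1, higher) and 2 without KO-labelled 7 Gy replicates 6 to 9, an alternative chosen after seeing the data. Same-numbered samples of different groups had deviations correlated over 0.1 in 20 of 30 pairs (median 0.24, range −0.40 to 0.73). Among pairs of other numbers 59 of 180 did (median −0.03). Since not every same-numbered pair did, the numbers were not taken to pair the samples. Each same-numbered pair also shared a slide, so number and slide cannot be told apart here. The replicate block gave the same differences as the slide block for H2-Ab1, H2-Eb1 and H2-DMb1 (0.37, 0.64 and 0.58), with smaller SEs. Numbers 6 to 9 occur only among KO-labelled 7 Gy arrays, so with the replicate block these arrays add nothing to the differences. Leaving out replicates 6 to 9 gave the same 0.64 for H2-Eb1 and 0.58 for H2-DMb1, so the replicate block and that exclusion are not separate evidence. The replicate block gave 10 in WT and 10 in KO-labelled arrays, and 0 for the difference between responses and at 0 Gy. Ciita reversed with normexp background correction, to 0.67 in WT and 0.21 in KO-labelled arrays. Of 552 values of single members under an alternative, 530 kept direction and side of the threshold, 15 lost the call, 5 gained it and 2 reversed. Relative to the scaling used, the median of all genes shifted by 0.65 (WT) and 0.73 (KO-labelled) with normexp, 0.33 (KO-labelled) with the 75th percentile over all probes, −0.15 and 0.16 with the median and 0.19 (KO-labelled) with quantile normalization; with each, at least 9 of 10 members lay below the median of all genes. Signal over background limits H2-DMb2, H2-Oa, H2-Ob and Ciita after 7 Gy. The number of all genes called moved more than that of the members: from 3700 to between 206 and 5447 in WT, from 7412 to between 1368 and 10018 in KO-labelled arrays, from 2484 to between 0 and 6242 for the difference between responses, from 46 to between 0 and 291 at 0 Gy, and from 3579 to between 104 and 6827 at 7 Gy, apart from single arrays left out.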
